A study of Mus musculus with 6 samples.

Results

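A set of 10 mouse genes was examined whose products make, convert or remove superoxide and peroxides: the superoxide dismutases Sod1 and Sod2, catalase (Cat), the glutathione peroxidases Gpx1 and Gpx4, the peroxiredoxins Prdx1, Prdx2 and Prdx6, and the NADPH oxidase membrane subunits Cybb and Cyba. They were chosen by symbol, and all 10 had a row among the 35709 genes of the deposited table. The cells were AML12, a non-tumorigenic hepatocyte line that was established from mice carrying a human transforming growth factor alpha transgene. AML12 cells had received small interfering RNA against Uhrf2 (siUhrf2, 3 libraries) or a control one (siCtrl, 3 libraries) with Lipofectamine RNAiMAX, and total RNA was sequenced after 72 h. By that treatment both groups received a transfected RNA and the carrier lipid. The siCtrl libraries are labelled wild type and the siUhrf2 libraries as Uhrf2 knock-down. The labels do not say whether the replicates were separate cultures, so p-values measure the spread between these libraries, which may be technical. The comparison asked which of these transcripts differed after Uhrf2 knock-down.

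Superoxide is formed on purpose by NADPH oxidases and as a by-product of respiration. Superoxide dismutases turn it into hydrogen peroxide, Sod1 mainly in the cytosol and Sod2 in the mitochondrial matrix. Catalase, which sits in peroxisomes and is abundant in liver, breaks hydrogen peroxide down without a reductant, whereas glutathione peroxidases draw on glutathione and the typical peroxiredoxins on thioredoxin. Cybb encodes gp91phox, also called NOX2, the catalytic subunit of the phagocyte NADPH oxidase, and Cyba encodes its stabilising partner p22phox, which other NOX enzymes also use.

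Depth lay between 44.6 and 53.1 M estimated reads per library. Uhrf2 had 2841 ± 88.2 normalized counts in siUhrf2 and 8992 ± 82.6 in siCtrl (SD, n = 3 each). Levels are given as the authors' normalized counts or as FPKM (fragments per kilobase, scaled to depth), and differences as siUhrf2 minus siCtrl on the log2(normalized count + 1) scale, with a call at an adjusted p under 0.05. Of the 11343 genes averaging 1 FPKM or more, 61.0% passed, 29.9% higher and 31.1% lower in siUhrf2, and the median difference over all of them was -0.0058. The hepatocyte identity of the line was partial in these RNAs. Of the listed hepatocyte markers, Hnf4a, Trf, Krt8 and Krt18 were well above 30 FPKM, and Apob averaged 39.2 FPKM in siUhrf2 and 44.7 in siCtrl. Alb, the albumin gene, had 0.471 FPKM in siUhrf2 and 0.751 in siCtrl, and Apoa1 averaged 0.132 in each.

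All 10 members were tested and 9 passed, 4 of them higher (Sod1, Gpx4, Prdx1 and Prdx6) and 5 lower (Cybb, Cat, Cyba, Sod2 and Gpx1), with Prdx2 not passing. That share is to be read against the 61.0% of all genes, and against 66.7% of the 4241 genes averaging 30 FPKM or more, a level that every member exceeded on average. Cybb and Cyba exceeded it only through siCtrl, with 88.1 and 43.5 FPKM there and 19.1 and 29.8 in siUhrf2. For these the comparison with the 66.7% is a description only. In 9 of the 10 the library ranges of the groups did not overlap, as in 66.7% of all genes tested. The changes were of unequal size. Cybb, Cat and Cyba fell by 2.19, 0.68 and 0.52 on the log2 scale, while the other 6 changes were between 0.14 and 0.22 in size, and 0 of those 6 passed a test against a change of 1.2-fold (limma treat). Each of the 6 was itself smaller than 1.2-fold, so that outcome follows from their sizes and adds no support. The members thus did not move as 1 group: the dismutases and the glutathione peroxidases were each divided, with Sod1 up and Sod2 down, Gpx4 up and Gpx1 down.

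**Figure D1:**
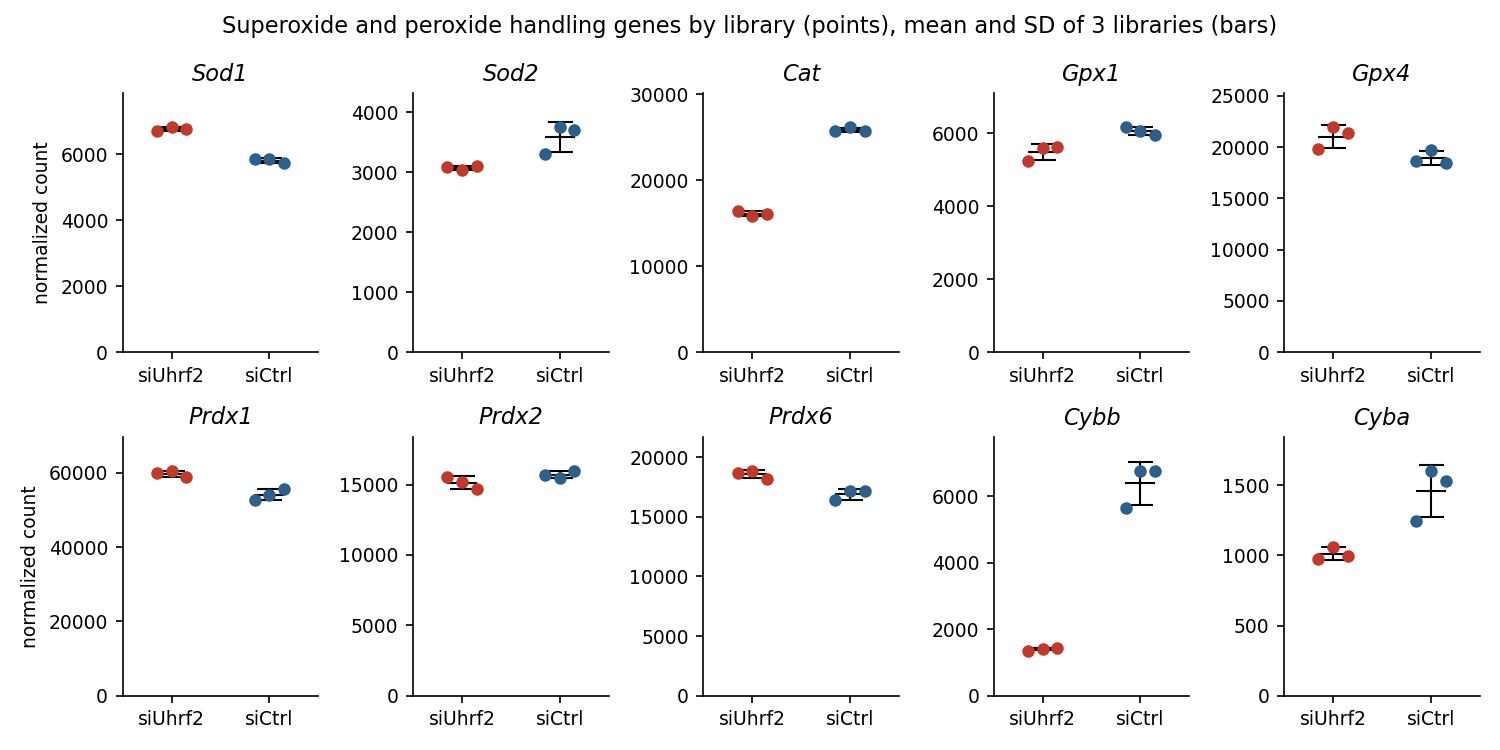
Normalized counts (axes starting at 0) of the 10 genes in the 3 siUhrf2 libraries (red, left) and the 3 siCtrl libraries (blue, right), replicates 1 to 3 from left to right in each group, with mean and SD. Only Prdx2 has overlapping library ranges, and Cybb and Cat are the furthest apart.

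Start-site windows are shown for the members Cybb and Cat, which fell most, and for the members whose window held an antioxidant response element core. That choice was made with the differences known. Uhrf2 encodes a protein that binds modified CpG sites, but neither CpG modification nor binding can be read from these RNA libraries. A relation between the number of CpGs and the direction of the members was not tested. RefSeq windows (GRCm38.p6, 250 bases before to 50 after a transcript start) were at hand for Cat, Sod1, Sod2, Gpx1, Gpx4, Prdx1, Prdx2, Cybb and Cyba, in 12 windows, and Prdx6 had none. Capitals mark CpG dinucleotides, and each sequence runs 5′ to 3′ along the gene's own strand. The windows are chrX:9469275-9469574 (minus strand) for Cybb, chr2:103485104-103485403 (minus strand) for Cat, chr4:116685349-116685648 (plus strand) for Prdx1 and chr16:90220512-90220811 (plus strand) for Sod1. The Cybb window lies inside the annotated gene, which has 5 transcripts and reaches 9487771. It thus describes a RefSeq start within the gene and not the outer end of the gene.
Cybb: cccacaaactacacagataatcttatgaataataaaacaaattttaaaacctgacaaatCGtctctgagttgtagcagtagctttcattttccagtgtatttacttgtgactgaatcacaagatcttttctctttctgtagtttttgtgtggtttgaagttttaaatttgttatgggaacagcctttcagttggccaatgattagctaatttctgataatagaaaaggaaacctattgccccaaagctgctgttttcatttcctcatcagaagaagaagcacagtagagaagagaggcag
Cat: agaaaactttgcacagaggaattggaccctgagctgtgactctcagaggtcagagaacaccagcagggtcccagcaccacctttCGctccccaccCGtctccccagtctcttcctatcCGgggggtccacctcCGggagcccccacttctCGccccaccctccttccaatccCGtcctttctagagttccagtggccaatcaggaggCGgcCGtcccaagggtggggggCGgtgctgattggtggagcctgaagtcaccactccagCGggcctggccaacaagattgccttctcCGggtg
Prdx1: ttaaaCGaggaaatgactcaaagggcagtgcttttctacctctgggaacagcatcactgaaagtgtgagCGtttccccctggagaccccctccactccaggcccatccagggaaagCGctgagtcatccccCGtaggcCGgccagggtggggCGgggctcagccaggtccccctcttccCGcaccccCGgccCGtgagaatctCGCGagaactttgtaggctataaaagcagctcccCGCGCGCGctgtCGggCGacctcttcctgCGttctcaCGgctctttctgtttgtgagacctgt
Sod1: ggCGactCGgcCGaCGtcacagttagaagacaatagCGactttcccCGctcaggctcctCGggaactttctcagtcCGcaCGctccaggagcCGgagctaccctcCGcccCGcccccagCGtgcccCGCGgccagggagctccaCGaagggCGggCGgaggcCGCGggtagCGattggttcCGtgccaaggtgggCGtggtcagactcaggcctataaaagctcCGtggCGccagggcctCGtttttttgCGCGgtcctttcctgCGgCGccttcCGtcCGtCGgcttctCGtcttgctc

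The Cybb window held 1 CpG, against a median of 7 over all 32851 windows of this length, and 35.3% G or C. The other windows shown held 11 CpGs in Cat, 19 in Prdx1 and 34 in Sod1. The rest had 9 in Cyba, 11 in Gpx1, 21 in Sod2, 27 in Prdx2 and 3 to 31 in the 4 windows of Gpx4, some of which overlap each other. On both strands, 5 motifs were searched. The antioxidant response element core TGACNNNGC, the letters of the NRF2 site, was found in 2 of the 12 windows, in Prdx1 as gctgagtca starting 133 bases before the start and in Sod1 as gcgtggtca starting 56 bases before it, both on the reverse strand. Over all windows 12.4% held it. The TATA box letters TATAAA were in the same 2 windows, and in 13.6% of all. The GC box GGGCGG was in 10 of the 12, against 35.7% of all, and missing from the Cybb window and from 1 Gpx4 window. Of those 10, 2 overlapping Gpx4 windows hold the same GC boxes, so the windows are not independent. The share of all windows was not matched to the members for CpG content, and the GC box itself holds a CpG. The PU.1 core GAGGAAGT, in 3.20% of all windows, and the direct repeat bound by PPAR receptors, in 0.0396%, were in 0 of the 12. Matches of different motifs did not overlap, while some GC boxes in the Sod1 window overlapped each other. These matches describe the letters of the windows and say nothing of binding.

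Cybb, the catalytic subunit, fell furthest of the 10. It lies on the minus strand of chromosome X from 9435252 to 9487771 (GRCm38, GENCODE M21) and held 1359, 1406 and 1433 normalized counts in the siUhrf2 libraries, against 5649, 6748 and 6771 in the siCtrl libraries. Every siUhrf2 library was far below every siCtrl library, with siCtrl replicate 1 the lowest of its group. Cybb thus kept 21.9% of its siCtrl level, a log2 difference of -2.19 (SE 0.066, 95% interval -2.33 to -2.04, limma adjusted p = 1.23e-08), and ranked 31st among all tested genes by the size of the fall. In bulk RNA, fewer cells that express a gene and less RNA per cell cannot be told apart.

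Cyba fell less. The gene, on the minus strand of chromosome 8 from 122424776 to 122432930, held 976, 1062 and 992 normalized counts in siUhrf2, against 1248, 1603 and 1527 in siCtrl. The groups did not overlap, and siCtrl replicate 1 was again the lowest of the controls, as for Cybb. The log2 difference was -0.52 (SE 0.086, 95% interval -0.72 to -0.33, limma adjusted p = 0.00055). The ratio of Cybb to Cyba normalized counts was 1.39, 1.32 and 1.44 in siUhrf2, against 4.53, 4.21 and 4.44 in siCtrl. In every siUhrf2 library the ratio was under every siCtrl ratio, a log2 difference of -1.66 (exact two-sided permutation p = 0.10, the smallest that 3 against 3 libraries allow). With the counts of both genes given above, no pairing of libraries within a group could make the ratios overlap. This separation was thus fixed beforehand and adds no support.

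Other NADPH oxidase genes were read beside both members. The list had 17 genes with a row, and 7 of them reached a mean of 1 FPKM: 4 fell (57.1%, beside 61.0% of all genes), and the remaining 3 did not pass (median -0.22). Of the 4, Rac2 reached that mean only through siCtrl, so it had to differ. Cybc1, which encodes a chaperone needed for a stable gp91phox and p22phox pair, held 1125, 1190.4 and 1148 normalized counts in siUhrf2, against 1554, 1728 and 1596 in siCtrl (log2 difference -0.49, limma adjusted p = 8.49e-06). Sh3pxd2b, an adaptor that organises NOX enzymes at podosomes, fell by 0.22 on the log2 scale. Rac2, the blood-cell Rac GTPase of the phagocyte oxidase, and Noxo1, the organiser of NOX1, also passed and are named because of the small count, after their values were seen. Rac2 held 20.7, 23.8 and 29.1 normalized counts in siUhrf2, against 308, 447 and 394 in siCtrl, given as a description because of how it entered the test. Its level was 0.399 FPKM in siUhrf2 and 6.27 in siCtrl, far below Cybb. Noxo1 had 1.11 FPKM in siUhrf2 and 1.74 in siCtrl.

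Cytosolic activators of the phagocyte oxidase were near the floor of detection. Ncf4 (p40phox) held 1.09, 1.02 and 2.01 normalized counts in siUhrf2, against 18.8, 51.6 and 28.8 in siCtrl, without overlap and without a test. Ncf1 (p47phox) averaged 6.52 normalized counts in siUhrf2 and 10.3 in siCtrl. The ubiquitous Rac1 had 22512 ± 445 normalized counts in siUhrf2 and 21539.6 ± 278 in siCtrl (SD, n = 3) and did not pass (limma adjusted p = 0.10). Nox4, the constitutively active homologue, averaged 1.78 FPKM in siUhrf2 and 1.95 in siCtrl and did not pass (limma adjusted p = 0.39).

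**Figure D2:**
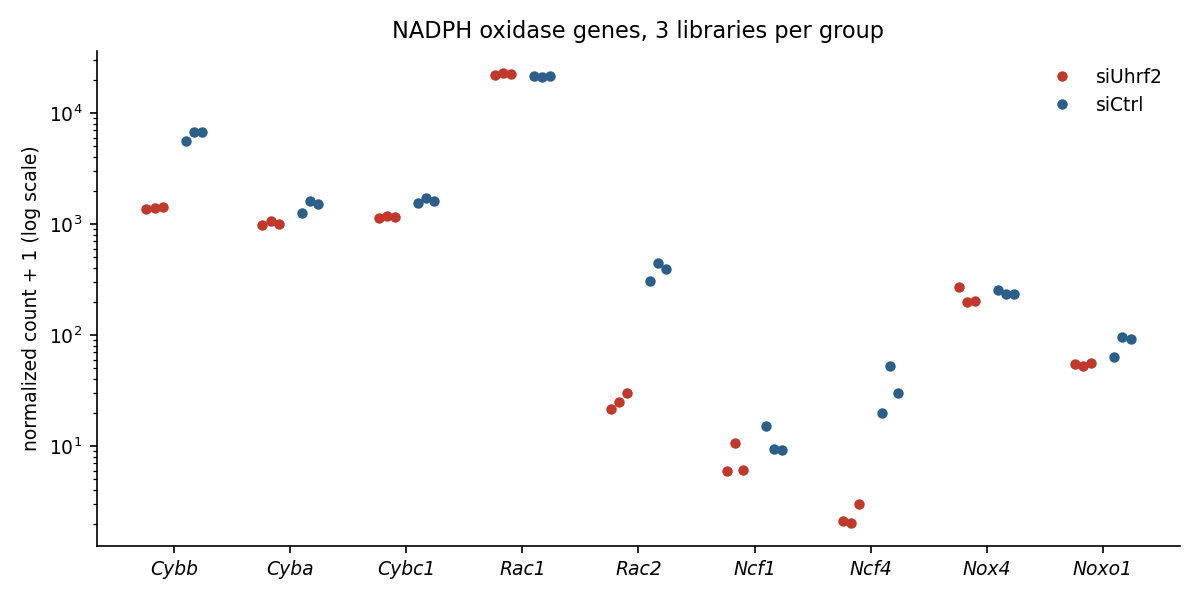
Normalized counts + 1 (log axis) of NADPH oxidase genes in the 3 siUhrf2 libraries (red, left) and the 3 siCtrl libraries (blue, right). Cybb, Cyba, Cybc1, Rac2, Ncf4 and Noxo1 lie lower in every siUhrf2 library than in every siCtrl library, and Rac1 is the highest in all 6.

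Because Cybb is best known from phagocytes, 16 phagocyte and leukocyte markers were read beside it. Of these, 4 reached a mean of 1 FPKM, 3 fell (75%, beside 61.0% of all genes called) and 1 did not pass. Csf1r, the receptor of macrophage colony-stimulating factor, averaged 1.42 FPKM in siUhrf2 and 3.83 in siCtrl, and Cd68 1.80 in siUhrf2 and 4.24 in siCtrl. Spi1, which encodes PU.1, fell by 0.73 on the log2 scale. They are named because the count is small, after their values were seen. Cd14 had 6137 ± 347 normalized counts in siUhrf2 and 6097 ± 237 in siCtrl (SD, n = 3). Summed over the 16 markers the level was 101 to 114 FPKM in siUhrf2 and 108 to 115 in siCtrl. Without Cd14 it was 5.30 to 6.77 FPKM in siUhrf2 and 11.2 to 12.8 in siCtrl. The defining markers Adgre1 and Tyrobp, and Mpo, were at 0 in all 6 libraries, and Ptprc, the leukocyte common antigen CD45, averaged 0.0794 FPKM in siUhrf2 and 0.146 in siCtrl. Cybb stood far above these, at 19.1 FPKM in siUhrf2 and 88.1 FPKM in siCtrl. Those values rest on a length of 1486 bases. Per length of its principal transcript, 4752 bases, Cybb had 5.98 FPKM in siUhrf2 and 27.6 in siCtrl. The part of these markers in the Cybb difference was not tested.

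Catalase was the hydrogen peroxide-removing member that fell most. Cat lies on the minus strand of chromosome 2 from 103453849 to 103485160 and held 16429.7, 15806 and 16082 normalized counts in siUhrf2, against 25719.9, 26179 and 25762 in siCtrl. The libraries of each group lay close together, with SDs of 312 in siUhrf2 and 254 in siCtrl, and the groups were far apart. Cat kept 62.2% of its siCtrl level, a log2 difference of -0.68 (SE 0.031, 95% interval -0.75 to -0.62, limma adjusted p = 1.47e-08).

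Catalase is carried into peroxisomes by the import machinery, and the listed peroxisome assembly genes went in both directions, as did all genes tested. Of 16, 4 fell, 3 rose and 9 did not pass, with a median of -0.018. That is 43.8% called, beside 61.0% of all genes (29.9% higher and 31.1% lower). Pex6, an AAA ATPase that recycles the import receptor, rose 1.55-fold and Pex14, the docking factor of that receptor, 1.11-fold. The Pex14 call was lost without siCtrl replicate 1, siUhrf2 replicate 2 or siUhrf2 replicate 3 (adjusted p of 0.0561, 0.0810 and 0.0751 by limma, in a range of 0.00486 to 1 over all alternatives). Pex26, the membrane anchor of Pex6, fell by 0.24 on the log2 scale. The receptor gene Pex5 itself averaged 2885 normalized counts in siUhrf2 and 2990 in siCtrl and did not pass. The count of 7 calls rested on single libraries: it was 3 without siCtrl replicate 1 and 4 without siUhrf2 replicate 2 or replicate 3.

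Oxidases that release hydrogen peroxide moved in both directions. Among 17 listed genes with a row, 12 were tested: 6 rose, 5 fell, and 1 missed the threshold (median 0.083). That is 91.7% called, beside 61.0% of all genes. Xdh, the xanthine oxidoreductase gene, whose enzyme can yield superoxide and hydrogen peroxide, held 1248, 1124 and 1127 normalized counts in siUhrf2, against 2600.1, 2709.8 and 2768 in siCtrl, a log2 difference of -1.21 (limma adjusted p = 9.22e-09). Acox2, which acts on branched chains and bile acid precursors, rose 2.26-fold and Paox, a polyamine oxidase gene, 1.58-fold. Hao1, Uox and Dao, peroxisomal oxidases of adult liver or kidney, each averaged under 0.1 FPKM in both groups.

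The dismutases moved in opposite directions. Sod1, encoded on chromosome 16 (plus strand) between 90220754 and 90226329, held 6704, 6813 and 6759 normalized counts in siUhrf2, against 5839.8, 5839.2 and 5720.1 in siCtrl. The siUhrf2 libraries were all above the siCtrl libraries, a log2 difference of 0.22 (SE 0.030, 95% interval 0.16 to 0.29, limma adjusted p = 6.18e-05). Sod2, encoded on chromosome 17 (plus strand) between 13006846 and 13040063, held 3079, 3032 and 3093 normalized counts in siUhrf2, against 3300, 3747 and 3698 in siCtrl. The siUhrf2 libraries lay close together, all below the siCtrl libraries, of which replicate 1 was again the lowest. The log2 difference was -0.22 (SE 0.047, 95% interval -0.32 to -0.12, limma adjusted p = 0.0017). The ratio of Sod1 to Sod2 normalized counts was 2.18, 2.25 and 2.19 in siUhrf2, against 1.77, 1.56 and 1.55 in siCtrl (exact two-sided permutation p = 0.10). Since Sod1 was higher and Sod2 lower without overlap, this separation was fixed beforehand and adds no support. Ccs, the copper chaperone that loads Sod1, fell by 0.15 on the log2 scale, a call that was lost when siCtrl replicate 3 was left out (limma adjusted p = 0.0513, in a range of 0.00307 to 1 over all alternatives). Sod3, the extracellular dismutase, averaged 0.581 FPKM in siUhrf2 and 0.369 in siCtrl and was not tested.

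Of the glutathione peroxidases, Gpx1, the cytosolic and mitochondrial enzyme for soluble peroxides, was lower and Gpx4, which reduces lipid hydroperoxides within membranes, was higher. Gpx1, encoded on chromosome 9 (plus strand) between 108338903 and 108340343, held 5231, 5588 and 5628 normalized counts in siUhrf2, against 6159, 6047 and 5959 in siCtrl (log2 difference -0.14, SE 0.036, 95% interval -0.22 to -0.065, limma adjusted p = 0.00473). Gpx4, encoded on chromosome 10 (plus strand) between 80047166 and 80056439, held 19781, 21951 and 21377 normalized counts in siUhrf2, against 18694, 19735 and 18445 in siCtrl. Its groups came within 50 normalized counts of each other, at siUhrf2 replicate 1 and siCtrl replicate 2. The difference was 0.15 (SE 0.043, 95% interval 0.055 to 0.24, limma adjusted p = 0.0104), but it no longer passed with siCtrl replicate 3 left out (adjusted p = 0.0541) or siUhrf2 replicate 2 left out (adjusted p = 0.0537), in a range of 0.000392 to 1 over all alternatives. The ratio of Gpx4 to Gpx1 was 3.78, 3.93 and 3.80 in siUhrf2, against 3.04, 3.26 and 3.10 in siCtrl. These ratios did not overlap, which follows from Gpx4 being higher and Gpx1 lower without overlap. Gpx3, Gpx2 and Gpx8 were each under 1 FPKM in every library, and Gpx5, Gpx6 and Gpx7 were listed at 0 in all 6.

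Both measured glutathione peroxidases contain selenocysteine, and other selenoprotein genes did not move as 1 group either. Of 12 tested 3 rose, 3 fell and 6 did not pass (50% called, beside 61.0% of all genes, median -0.047). Selenop, which encodes the secreted selenium carrier of the liver, held 42002.6, 40824.9 and 41603 normalized counts in siUhrf2, against 67388, 67679 and 68681 in siCtrl, a log2 difference of -0.71 (limma adjusted p = 1.51e-08). Selenon, a calcium-handling protein of the endoplasmic reticulum, rose 1.62-fold, and Selenos and Selenot fell by 0.33 and 0.11 on the log2 scale. Among 9 genes of selenoprotein synthesis 3 rose, 3 fell and 3 did not pass (66.7% called, near the 61.0% of all genes, median 0.10). Eefsec, the selenocysteine elongation factor, and Pstk, the kinase that acts on the charged tRNA, rose 1.23-fold and 1.26-fold. Scly, which recovers selenium from selenocysteine, and Sepsecs, the synthase, fell by 0.44 and 0.20 on the log2 scale.

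Of the peroxiredoxins, Prdx1 and Prdx6 rose slightly and Prdx2 did not pass. Prdx1, an abundant cytosolic enzyme of the typical kind with a pair of active cysteines, is on chromosome 4 (plus strand) between 116685544 and 116700822. It held 59856, 60599 and 58861 normalized counts in siUhrf2, against 52823, 54055 and 55626 in siCtrl (log2 difference 0.14, SE 0.035, 95% interval 0.066 to 0.22, limma adjusted p = 0.00415). The lowest siUhrf2 library was above the highest siCtrl library. Under quantile normalization the Prdx1 difference was 0.056 and its call was lost (adjusted p = 0.155, in a range of 0.000209 to 1 over all alternatives). Prdx6, a peroxiredoxin with 1 active cysteine that also has phospholipase activity, lies on the minus strand of chromosome 1 from 161240112 to 161251219. It held 18688, 18867 and 18175 normalized counts in siUhrf2, against 16377, 17187 and 17145 in siCtrl, without overlap (log2 difference 0.14, SE 0.033, 95% interval 0.063 to 0.21, limma adjusted p = 0.00399).

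Prdx2, the close relative of Prdx1 that is known from red blood cells, is on chromosome 8 (plus strand) between 84969587 and 84974834. It held 15558, 15194 and 14692 normalized counts in siUhrf2, against 15714, 15452 and 15987 in siCtrl, so that siUhrf2 replicate 1 lay within the siCtrl range. The difference was -0.054 (SE 0.033, 95% interval -0.13 to 0.019, limma adjusted p = 0.181), and it passed only without that library (-0.073, adjusted p = 0.0495, in a range of 0.0495 to 1 over all alternatives). Its exons share 173 bases with Junb and 177 with Rnaseh2a on the opposite strand, and its level is uncertain because no source at hand states how strand was handled. The other members share 0 exon bases with a neighbour. Processed copies named for Gpx4, Prdx2 and Prdx6 (Gpx4-ps2, Prdx2-rs3 and Prdx6-ps2) are annotated and had no row used here, so reads from them could count for the parent gene. Prdx3 and Prdx4, the mitochondrial and endoplasmic reticulum peroxiredoxins, rose 1.18-fold and 1.47-fold, and Prdx5 averaged 17541 normalized counts in siUhrf2 and 17227 in siCtrl and did not pass.

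**Figure D3:**
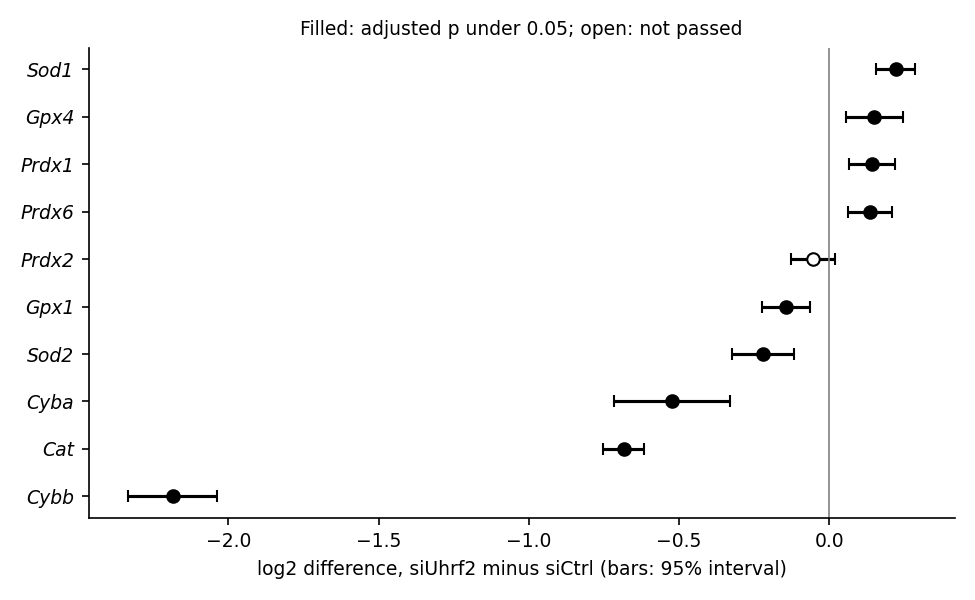
Log2 difference between siUhrf2 and siCtrl with its 95% interval for the 10 genes, filled where the adjusted p was under 0.05. Cybb at -2.19 stands apart from Cat at -0.68 and Cyba at -0.52, and the other 7 lie between -0.22 and 0.22.

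The reducing systems that serve these enzymes were mixed. Of 16 thioredoxin, glutaredoxin and glutathione reduction genes 7 rose, 4 fell and 5 did not pass (68.8% called, beside 61.0% of all genes, median 0.046). Txn1, the cytosolic thioredoxin that recharges the peroxiredoxins, rose 1.27-fold, and Txnip, an inhibitor of thioredoxin, rose 1.80-fold. Glrx, the cytosolic glutaredoxin, held 2156 ± 87.8 normalized counts in siUhrf2 and 3551 ± 74.6 in siCtrl (SD, n = 3), and Sesn3, a sestrin, fell by 0.32 on the log2 scale. Srxn1, the sulfiredoxin that repairs overoxidised peroxiredoxins, averaged 1675 normalized counts in siUhrf2 and 1639 in siCtrl, Txnrd1, the thioredoxin reductase of the cytosol, 12255 in siUhrf2 and 12786 in siCtrl, and neither passed. Among 9 genes of glutathione synthesis and turnover 4 rose, 3 fell and 2 did not pass (77.8% called, beside 61.0% of all genes, median 0.16). Gclc, the catalytic subunit of the limiting step, and Oplah, the 5-oxoprolinase, fell by 0.20 and 0.41 on the log2 scale. Chac1 and Chac2, which degrade glutathione, rose by 1.18 and 0.20 on that scale. On the synthesis side Slc7a11 and Gss also rose, 2.96-fold and 1.12-fold, and Slc3a2 fell by 0.17 on the log2 scale. Slc7a11 averaged 7.21 FPKM in siUhrf2 and 2.45 in siCtrl. Slc7a11, Gss and Slc3a2 are named after their values were seen.

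Around the lipid peroxide task of Gpx4, 3 of 7 tested genes rose, 2 fell and 2 did not pass (median -0.046). That is 71.4% called, beside 61.0% of all genes. Ftl1, the ferritin light chain, and Lpcat3, an acyltransferase that builds polyunsaturated phospholipids, rose 1.22-fold and 1.32-fold, the Ftl1 call being lost without a filter on low values (limma adjusted p = 0.0594). Acsl4, which activates polyunsaturated fatty acids, and Hmox1, the haem oxygenase gene, fell by 0.25 and 0.34 on the log2 scale. Over the 4 other genes tested of the dismutase, glutathione peroxidase and peroxiredoxin families, Ccs included, 2 rose, 1 fell and 1 did not pass. That is 75% called, beside 61.0% of all genes, with a median of 0.13. The members' own median was -0.099, beside -0.0058 for all genes tested.

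**Figure D4:**
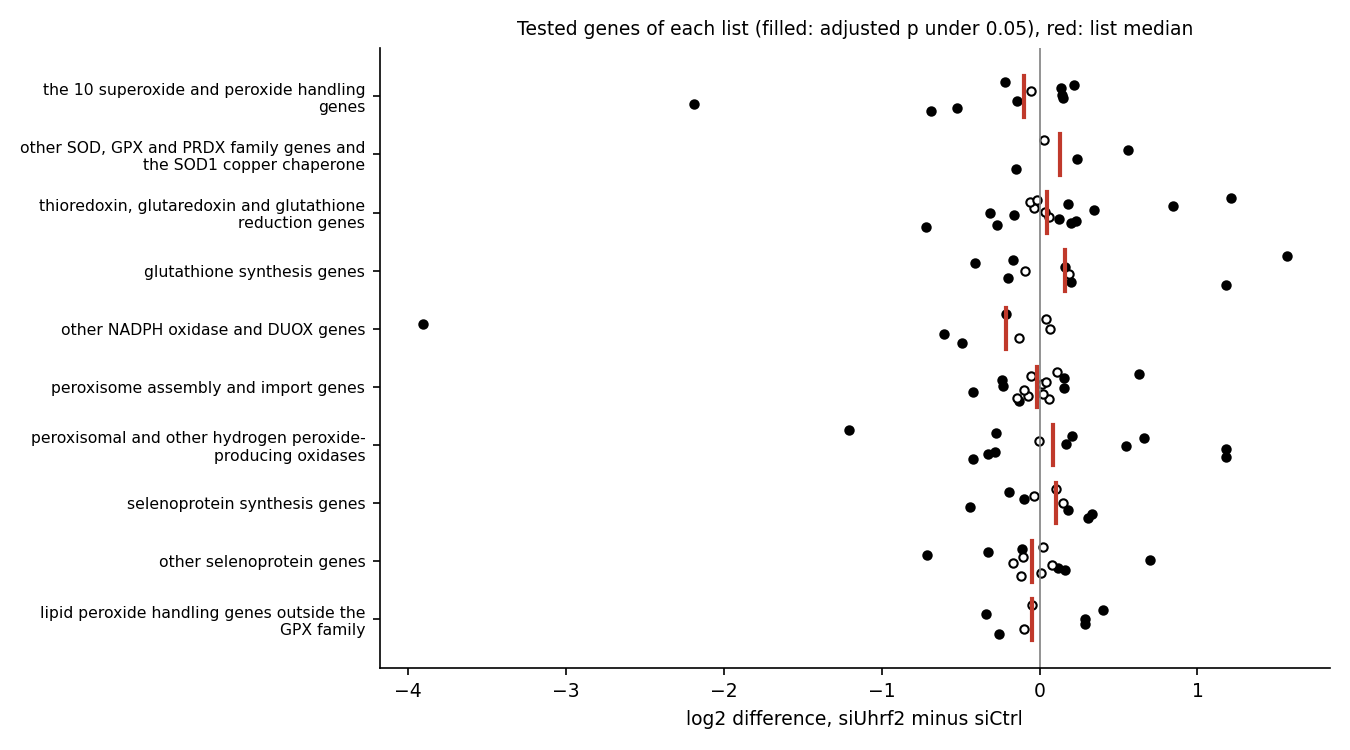
Log2 difference between siUhrf2 and siCtrl of each tested gene in the 10 members and in the 9 lists around them (filled where the adjusted p was under 0.05), with the list median as a red bar. The medians lie between -0.22 and 0.16. The point furthest to the left is Rac2, which averaged over 1 FPKM in siCtrl only.

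Levels between genes can be compared only per length, and the length used matters here. For 98.2% of the genes tested, the length behind the deposited FPKM equalled, within 1%, the mean length of all annotated transcripts of the gene. For Sod1 it was 2306 bases, the mean of a coding transcript of 641 and another of 3970, and for Sod2 it was 1734 where the principal transcript has 5861. On the deposited scale the order in siUhrf2, with the range of its 3 libraries, was Prdx1 (1265 to 1311 FPKM), Gpx4 (599.9 to 655), Prdx6 (given as its mean, 299 ± 7.46, SD), Prdx2 (260.4 to 281), Cat (188 to 199), Gpx1 (126 to 133), Sod1 (59.1 to 59.8), Sod2 (35.3 to 36.5), Cyba (29.1 to 31.2) and Cybb (18.8 to 19.5). No neighbours in that order overlapped. In siCtrl the order was Prdx1 (1159 to 1214 FPKM), Gpx4 (558 to 595), Cat (311 to 315), Prdx2 (277 to 288), Prdx6 (267 to 278), Gpx1 (143 to 149), Cybb (78.3 to 93.4), Sod1 (50.8 to 52.2), Cyba (37.4 to 47.6) and Sod2 (39.2 to 44.1). There Prdx2 overlapped with Prdx6, and Cyba with Sod2. Prdx1 ranked 47th of all 11343 genes tested by its mean.

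Recomputed on the APPRIS principal transcript, a choice made after the data were seen, Prdx1 and Gpx4 stayed first and second in both groups, with 529 ± 10.2 and 445 ± 19.7 FPKM in siUhrf2 and 484 ± 11.6 and 405 ± 13.4 in siCtrl. Sod1 moved to rank 3 in siUhrf2 with 214 ± 1.28 FPKM and to rank 5 in siCtrl with 186 ± 2.42. Cybb moved below Cyba in siCtrl as well, with 27.6 ± 2.66 against 40.2 ± 4.99 FPKM. In siUhrf2 Cybb had 5.98 ± 0.103 FPKM and Cyba 27.6 ± 1.11. The log2 difference of a single gene between the groups is not touched by this, since 1 length serves all libraries of a gene. Sums over genes are.

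Summed on the deposited scale, the 6 peroxide-removing members (Cat, Gpx1, Gpx4, Prdx1, Prdx2 and Prdx6) had 2821, 2852 and 2776 FPKM in siUhrf2, against 2739, 2785 and 2793 in siCtrl, with overlap. The 2 dismutases together had 95.5 ± 0.681 FPKM in siUhrf2 and 93.9 ± 2.30 in siCtrl (SD, n = 3), also with overlap. Such sums depend on the length used for each gene. Per principal transcript Sod1 had 214 ± 1.28 FPKM in siUhrf2 and 186 ± 2.42 in siCtrl. Sod2 had 10.6 ± 0.173 in siUhrf2 and 12.5 ± 0.809 in siCtrl on that scale. There the rise of Sod1 outweighs the fall of Sod2, so the overlap of the dismutase sums holds for the deposited scale only. Within the sum the balance differed: the ratio of Prdx1 to Cat normalized counts was 3.64, 3.83 and 3.66 in siUhrf2, against 2.05, 2.06 and 2.16 in siCtrl (exact two-sided permutation p = 0.10). Of such ratios 4 were compared, each with an exact permutation p of 0.10, which Benjamini-Hochberg adjustment over the 4 leaves unchanged. The ratios were not among the planned comparisons. For Sod1 to Sod2, Gpx4 to Gpx1 and Prdx1 to Cat, the numerator was already higher and the denominator lower without overlap. For Cybb to Cyba both fell, but the counts of Cybb fell so much further that the ratios had to separate. The separation and p of all 4 were thus fixed beforehand and are a description only. All 10 members together took 0.297% to 0.304% of the normalized total in siUhrf2 and 0.312% to 0.321% in siCtrl.

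**Figure D5:**
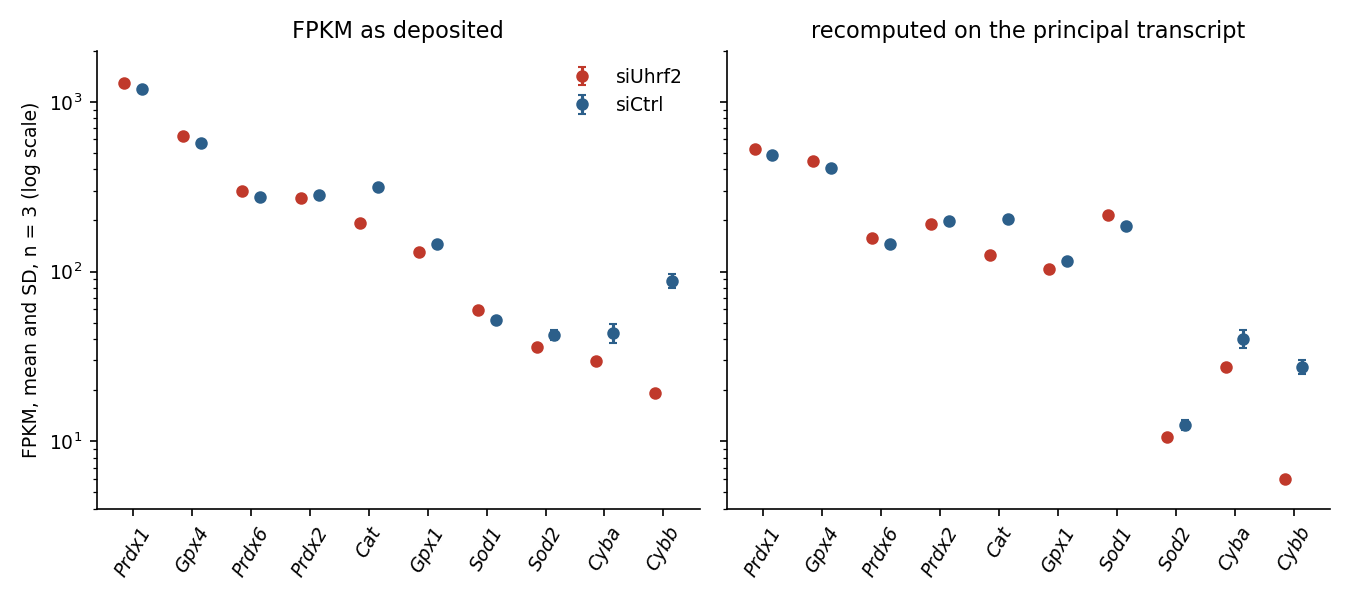
Mean FPKM and SD of 3 libraries (log axis) for the 10 genes in siUhrf2 (red, left) and siCtrl (blue, right), as deposited in the left panel and recomputed per length of the principal transcript in the right panel. Sod1 takes a higher place and Cybb in siCtrl a lower one when the length is changed, while the gap between groups stays the same for each gene.

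Profiles over the 6 libraries were compared by the Euclidean distance of log2 values centred on each gene's mean, among 9065 genes averaging 5 FPKM or more, with Gm and Rik symbols left out. Those nearest to Cat were Tpp1, Selenop, Ccdc9b, Serpine2 and Tgoln1, at distances of 0.04 to 0.06, with log2 differences of -0.71 to -0.67. Those nearest to Cybb were Ly6a, C1s1, Synpo, Gstm2 and Ly6c1, at distances of 0.34 to 0.46, with log2 differences of -2.24 to -1.88. The distance also takes in the size of the group difference, so it is a description only. Of the remaining markers, 3 of 8 tested hepatocyte markers rose, 2 fell and 3 did not pass (62.5% called, near the 61.0% of all genes). Krt18 rose 1.41-fold, Krt8 1.44-fold and Hnf4a 1.06-fold, and Trf fell by 0.32 on the log2 scale. Serpina1a, the second that fell, had 0.914 FPKM in siUhrf2 and 2.07 in siCtrl, so it too passed the filter only through siCtrl, and it is named after its value was seen. The Hnf4a call held in 12 of 19 alternatives and was lost without siCtrl replicate 2, siUhrf2 replicate 2 or siUhrf2 replicate 3 (limma adjusted p of 0.0731, 0.0587 and 0.0610), under upper quartile scaling (0.0967) and without a filter on low values (0.0612), in a range of 0.00933 to 1. Of 3 tested fibroblast, endothelial and cholangiocyte markers Krt19 and Sox9 rose, 1.98-fold and 1.13-fold, and Krt7 fell by 0.16. That is 100% called, beside 61.0% of all genes. Col3a1 and Epcam were at 0 in all libraries. The hepatocyte markers summed to 3095 to 3274 FPKM in siUhrf2 and 2623 to 2824 in siCtrl, but without Krt8 and Krt18 to 937 to 1016 FPKM in siUhrf2 and 1129 to 1252 in siCtrl, the opposite direction. The other list summed to 554 to 603 FPKM in siUhrf2 and 303 to 337 in siCtrl, which was mostly Krt19: without it the sums were 44.5 to 48.3 FPKM in siUhrf2 and 48.4 to 50.03 in siCtrl. Both reduced sums were chosen after the data were seen. Their part in the differences of the members was not tested.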

How the data were processed

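The 6 libraries of AML12 total RNA were grouped by their titles, and the table's columns were matched to them by name, with 0 columns unused. For each gene the authors deposited 6 normalized counts (signal values) and 6 FPKM values, as named in the header. Tools listed in the submitters' processing notes are kallisto 0.44.0, edgeR and the build GRCm38.p6, without the step each served. The strand setting and the summing of transcripts to genes were not stated in any source at hand. Symbols came from GENCODE M21 (35574 of 35709 identifiers matched). The value of 1 read, the most frequent low value, gave the depth. Between 62.8% and 64.7% of values above 0 were whole reads within 0.01, so no count test was run, although the design foresaw one for counts. Instead, limma 3.58.1 under R 4.3.3 with statmod 1.5.0, using trend and robust variances, was fitted to log2 values of the deposited normalized counts with a pseudocount of 1, over the 11343 genes averaging 1 FPKM or more, with Benjamini-Hochberg adjustment over all of them. The fit was tested on simulated data first.

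The members and lists were chosen with earlier results of these data known. Named were the members, Uhrf2, in each list the 4 called genes of lowest adjusted p (fewer where fewer passed) that averaged 5 FPKM or more, and the 5 nearest profiles to Cat and Cybb. Other genes are named because a count was small or as family members, after their values were seen. A few list genes within this rule are not reported here. Replicate pairs within groups had Pearson r of 0.994 to 0.997 across genes, and each pair differed by more than sampling noise (chi-square per degree of freedom 3.21 to 12.7). Genes with few reads are less precise. Alternatives covered scaling, pseudocount, filter, unit, variance model, threshold, a test against 1.2-fold, a replicate block and leaving out each library.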

Additional observations from a re-analysis of the deposited data

How the results depend on the processing

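Cat, Cybb and Cyba kept their calls and signs under all 19 alternatives, with log2 differences of -0.73 to -0.67, -2.27 to -2.14 and -0.63 to -0.45. The limma treat test against 1.2-fold, which asks for more by construction, left 1691 of 6919 called genes and 3 members (0 higher and 3 lower). Sod1 (0.22), Sod2 (-0.22), Gpx1 (-0.14), Gpx4 (0.15), Prdx1 (0.14) and Prdx6 (0.14) did not pass it, as each change was itself smaller than 1.2-fold. It called 1 gene in the other dismutase and peroxidase families, 3 in thioredoxin, 2 in glutathione synthesis, 2 in NADPH oxidase, 1 in peroxisome assembly, 6 among oxidases, 1 in selenoprotein synthesis, 2 among selenoproteins, 1 in lipid peroxides, 3 hepatocyte and 1 fibroblast-list marker. Quantile normalization took Prdx1 to 0.056, and the cause was not tested. An adjusted p under 0.01 dropped Gpx4 (0.15) and left 3 peroxisome and 3 selenoprotein genes. Without a filter 4 peroxisome genes passed, and at 5 FPKM 2 NADPH oxidase genes and 0 phagocyte markers, since fewer are tested there. Leaving out 1 library gave 6010 to 7047 called genes, 8 to 10 members, 3 to 7 peroxisome genes, Gpx4 differences of 0.12 to 0.19 and Prdx2 differences of -0.073 to -0.032. Uhrf1, at 0.029 and not called, ranged from -0.028 (without siCtrl replicate 1) to 0.079 (without siUhrf2 replicate 1).

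Other scalings moved the median of all genes by under 0.1 and the share of higher calls from 49.1% to between 43.6% and 52.5%. Per length of the principal transcript the mean levels over 6 libraries were 164 FPKM for Cat, 199.8 for Sod1, 11.6 for Sod2, 109.8 for Gpx1, 425 for Gpx4, 507 for Prdx1, 195 for Prdx2 and 152 for Prdx6. With the replicate block 7248 genes and the same number of members, 9, were called. The numbers are not stated to pair libraries: deviations of same-numbered libraries correlated at 0.18, 0.24 and 0.066. No member's call changed under the block. DESeq2 was not run because the table holds no counts. A depth of 44.6 to 53.1 M reads does not limit the members, but genes such as Ncf4 rest on a few reads in siUhrf2.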
